A study of Mus musculus with 6 samples.

Results

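The small leucine-rich proteoglycans (SLRPs) are secreted matrix proteins, and 9 of their genes, Dcn, Bgn, Lum, Fmod, Omd, Prelp, Ogn, Aspn and Podn, are described here in choroid endothelial cells (ECs) of developing and adult mice. They are 9 of the 22026 gene symbols measured in each sample and were matched by symbol, and all 9 were found. They were put on the list with the difference between the ages already known, so their values, errors and calls at the ages are given as a description, and no p is given for them. RNAseq was performed on cells from 129/B6 mice at postnatal day 5 (P5), while the retina is still differentiating, and at postnatal day 30 (P30), when vision is mature. Each age has 3 independent isolations, and each isolation pooled the RPE/choroid of 7 animals, which at P30 were of both sexes. ECs were labelled in the living, untreated animal by injecting an antibody against the junction protein VE-Cadherin, and were collected by flow cytometry. The values are FPKM, fragments scaled to transcript length and, between libraries, by upper quartile normalization, which can be compared between genes.

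SLRP core proteins carry a curved stack of leucine-rich repeats between cysteine clusters, and many of them bear chondroitin, dermatan or keratan sulfate chains. Outside the cell they bind collagen fibrils, limit their width and set their spacing, and several also bind growth factors of the TGF-β family. Fibroblasts, and in vessel walls the mural cells around the endothelium, are well-known sources of these proteins, while biglycan is also made by ECs. In the eye, lumican and its relatives are best known from the cornea and sclera. In bulk RNA of sorted cells, fewer cells of a type and less RNA per cell cannot be told apart.

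The sequences just upstream of the gene starts are shown for Bgn, the member with the highest P30 mean, and for Omd, the member listed at 0 in every P5 isolation. Those of Aspn and Ogn, which flank Omd on chromosome 13, were added after their values had been seen. Each is the 250 bases before the annotated start, 5′ to 3′ on the strand of the gene, from RefSeq on GRCm38.p6. Entries were found for 7 of the 9 genes (Bgn, Fmod, Omd, Prelp, Ogn, Aspn and Podn). Capitals mark matches, on either strand, to the letters TATAAA of the TATA box, the letters TGANTCA of the AP-1 site, the letters CATTCC of the TEAD site, the CCAAT box by its own letters, or the letters GGGCGG of the GC box. None of these letter strings contains another, although matches may overlap in the sequence, as the 2 TATAAA matches of Ogn do.
Bgn, chrX:73483351-73483600, plus strand: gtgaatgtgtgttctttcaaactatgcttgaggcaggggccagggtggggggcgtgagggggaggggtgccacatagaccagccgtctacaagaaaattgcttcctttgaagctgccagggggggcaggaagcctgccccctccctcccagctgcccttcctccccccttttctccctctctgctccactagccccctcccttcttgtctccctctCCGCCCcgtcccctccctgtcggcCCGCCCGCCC
Aspn, chr13:49544193-49544442, plus strand: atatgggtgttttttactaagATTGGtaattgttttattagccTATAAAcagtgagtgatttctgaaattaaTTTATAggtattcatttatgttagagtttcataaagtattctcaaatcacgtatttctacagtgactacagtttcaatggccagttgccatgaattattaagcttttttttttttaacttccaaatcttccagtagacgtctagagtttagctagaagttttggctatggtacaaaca
Omd, chr13:49582212-49582461, plus strand: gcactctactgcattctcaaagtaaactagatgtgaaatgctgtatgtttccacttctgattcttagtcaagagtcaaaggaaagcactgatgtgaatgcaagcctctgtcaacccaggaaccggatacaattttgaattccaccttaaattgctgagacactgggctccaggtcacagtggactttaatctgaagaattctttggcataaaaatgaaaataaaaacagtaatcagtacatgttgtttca
Ogn, chr13:49607765-49608014, plus strand: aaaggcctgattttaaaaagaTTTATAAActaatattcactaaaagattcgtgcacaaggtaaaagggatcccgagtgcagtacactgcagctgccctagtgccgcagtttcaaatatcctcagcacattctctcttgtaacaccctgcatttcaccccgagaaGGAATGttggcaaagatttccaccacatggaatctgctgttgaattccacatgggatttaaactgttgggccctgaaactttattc
The window of Bgn held 64.4% G and C and 7 CpG, with 3 matches to GGGCGG, 2 of them overlapping, in the last 34 bases before the start. The windows of the chromosome 13 genes held fewer G and C, with 30.0% in Aspn, 38.4% in Omd and 42.0% in Ogn, against a median of 52.4% over 32851 windows of all genes. TATAAA was found in 2 of the 7 genes (Aspn and Ogn) and in 12.4% of all windows. These matches lay 207 to 202 and 178 to 173 bases before the start in Aspn, and 229 to 222 bases before it in Ogn. Whether they act as TATA boxes was not tested. CCAAT was found in 2 (Prelp and Aspn) and in 33.8% of all windows, and GGGCGG in 2 (Bgn and Podn) and in 32.7%. CATTCC was found in 1 (Ogn) and in 12.6%, and TGANTCA in 0 and in 6.75%. With 7 genes, these counts describe the windows and were not compared with the levels.

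As a description, the 9 SLRP genes summed to a higher level in P30 than in P5 isolations, and the sum was more evenly shared between family members. At P5, Bgn stood far above the others, with a mean of 1115 FPKM against 108.5 for Dcn, the next gene. At P30 the isolations of Dcn overlapped with those of Bgn, and Lum, Fmod, Omd, Prelp, Ogn and Podn were, like Dcn, higher in every P30 isolation than in every P5 isolation. This order was seen in 7 of the 9 genes and in 22.0% of the 12481 genes tested, and the opposite order in 0 of the 9 and in 33.0% of all. In Aspn and Bgn the isolations of the ages overlapped. Log2 values are of FPKM + 1, on which the difference of a low gene is understated, and differences are P30 minus P5 with the SE of the limma fit. Of the 9 genes, 5 (Dcn, Fmod, Omd, Prelp and Ogn) were past the limits used for a call, a Benjamini-Hochberg adjusted p under 0.01 and at least 2-fold, where 5.89% of all genes tested were called higher at P30. None was called higher at P5, where 5.82% of all genes tested were. The count of 5 became 3 without any single P5 isolation or without P30 replicate 3, with Prelp and Ogn no longer past the limits. Since the genes were chosen on this difference, nothing is read from these counts, nor from their median log2 difference of 2.25. Over all genes tested, the median was -0.10. All 9 had a mean of at least 5 FPKM at some age, the minimum for the fit, but Fmod, Omd and Podn met it through P30 alone.

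**Figure D1:**
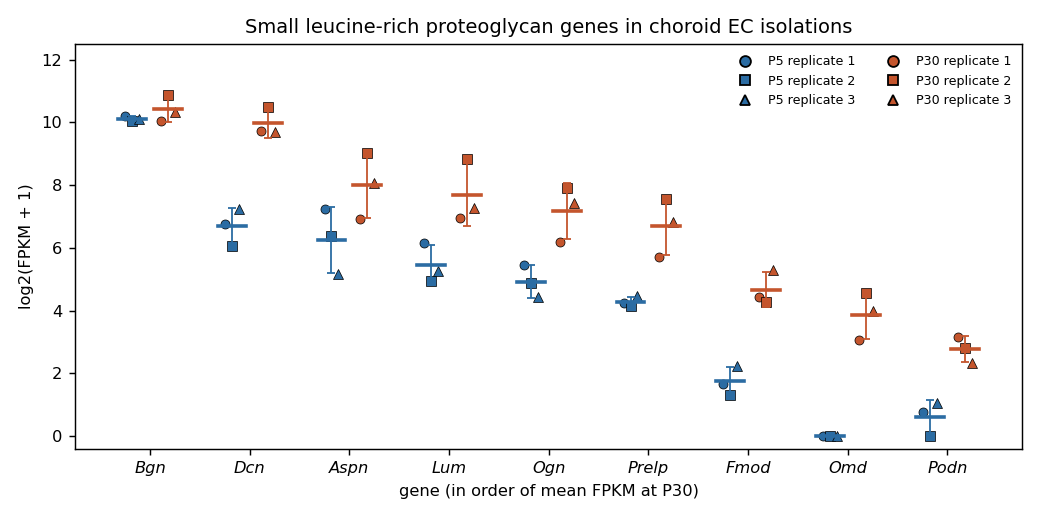
Level of each SLRP gene as log2(FPKM + 1), in order of mean FPKM, with a point for each of the 3 P5 and 3 P30 isolations, a bar at the mean and whiskers of 1 SD. P30 points lie above all P5 points in 7 of the 9 genes, and overlap with them in Bgn and Aspn.

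Class I SLRPs share a cysteine pattern, and Dcn and Bgn of this class bear chondroitin or dermatan sulfate chains. Dcn encodes decorin, which decorates collagen fibrils and binds TGF-β (mm9, chr10:96942245-96980777). Values below are always listed in the order of replicates 1, 2 and 3. Dcn had 107.23, 66.48 and 151.79 FPKM at P5, against 854.07, 1439.21 and 819.75 at P30. The lowest P30 isolation was thus far above the highest P5 isolation. The means were 108.5 ± 42.7 and 1038 ± 348 (SD, n = 3 each), that of P30 being 9.56 times as high, with a log2 difference of 3.27 (SE 0.33).

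Bgn encodes biglycan, which carries a pair of chains and also acts as a ligand of Toll-like receptors once freed from the matrix (chrX:70728941-70741272). Its FPKM was 1184.95, 1046.55 and 1114.03 at P5 and 1065.66, 1880.10 and 1279.76 at P30. P30 replicate 1 lay within the P5 range, and P30 replicates 2 and 3 lay above it. The means were 1115 ± 69.2 and 1409 ± 422 (SD, n = 3 each), a log2 difference of 0.30 (SE 0.20), which fell to 0.07 without P30 replicate 2 and to 0.0014 after quantile normalization.

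Aspn encodes asporin, a class I protein with an aspartate-rich stretch and no glycosaminoglycan chain, which binds collagen and TGF-β (chr13:49639812-49662926). Its FPKM was 149.72, 82.06 and 34.62 at P5 and 119.52, 526.00 and 266.99 at P30. P30 replicate 1 lay below P5 replicate 1, so the ages overlapped, and the highest isolation was 4.32 times the lowest at P5 and 4.40 times at P30. The means were 88.8 ± 57.8 and 304 ± 206 (SD, n = 3 each), with a log2 difference of 1.75 (SE 0.64).

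Class II SLRPs include the keratan sulfate proteoglycans, several of which carry sulfated tyrosines. Lum encodes lumican, needed for the ordered fibrils of a clear cornea (chr10:97028135-97035337). Its FPKM was 70.97, 29.85 and 37.57 at P5 and 123.89, 455.26 and 155.29 at P30. All P30 isolations were above all P5 isolations, but P30 replicate 2 was 3.67 times as high as P30 replicate 1. The means were 46.1 ± 21.9 and 245 ± 183 (SD, n = 3 each), with a log2 difference of 2.23 (SE 0.51).

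Fmod encodes fibromodulin, a partner of lumican on collagen fibrils, well known from tendon (chr1:135933831-135944854). Its FPKM was 2.20, 1.51 and 3.77 at P5 and 20.66, 18.32 and 38.44 at P30. The groups did not overlap, and in contrast to most members P30 replicate 3 was the highest. The mean was 2.49 ± 1.16 at P5 and 25.8 ± 11.0 at P30 (SD, n = 3 each), 10.4 times as high, with a log2 difference of 2.92 (SE 0.39).

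Prelp encodes a basic protein that binds heparan sulfate chains and collagen, linking basement membranes to the matrix beneath them (chr1:135806881-135817991). Its FPKM was 17.91, 16.94 and 20.91 at P5 and 51.75, 187.39 and 112.46 at P30. The P5 isolations lay close together, with the highest 1.23 times the lowest, while the P30 isolations differed by a factor of 3.62. The means were 18.6 ± 2.07 and 117.2 ± 67.9 (SD, n = 3 each), with a log2 difference of 2.42 (SE 0.41).

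Omd encodes osteomodulin, a keratan sulfate protein of mineralized tissue (chr13:49678135-49687978). It was listed at 0 in all 3 P5 isolations and at 7.34, 22.49 and 14.77 FPKM at P30. No fold is given against values of 0, because the depth of the libraries is unknown.

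Ogn encodes osteoglycin, also called mimecan, a class III protein of vessel wall, cornea and bone (chr13:49703440-49719869). Its FPKM was 43.28, 28.48 and 20.57 at P5 and 71.66, 239.07 and 172.06 at P30. All P30 isolations were above all P5 isolations, and P30 replicate 1 was the nearest to them. The means were 30.8 ± 11.5 and 160.9 ± 84.3 (SD, n = 3 each), with a log2 difference of 2.25 (SE 0.45).

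Podn encodes podocan, a class V SLRP that was named for podocytes and binds collagen (chr4:107687396-107704942). Its FPKM was 0.70, 0 and 1.09 at P5 and 8.02, 6.0 and 4.08 at P30. The groups did not overlap, but it was the lowest of the 9 genes at P30. Its log2 difference of 2.17 (SE 0.54) depended on the value added before the logarithm, and was 3.70 with 0.1 added and 0.97 with 5.

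The order of the mean levels was the same at both ages for the 7 highest genes (Bgn, Dcn, Aspn, Lum, Ogn, Prelp and Fmod). Omd and Podn followed, with Podn above Omd at P5 and below it at P30. At P5, neighbours in this order had overlapping isolations except Bgn and Dcn, Prelp and Fmod, and Fmod and Podn. At P30, the isolations of Bgn and Dcn overlapped, and neighbours without overlap were Dcn and Aspn, and Prelp and Fmod.

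The make-up of the family, unlike the levels, cannot change with the scaling of a library, since each share is taken within an isolation. Bgn was 75.1, 82.3 and 80.5% of the summed FPKM of the 9 genes at P5. It was 45.9, 39.4 and 44.7% at P30. The share of Bgn was therefore below that of every P5 isolation in each P30 isolation, although its own level was not lower. Dcn took 6.80, 5.23 and 11.0% at P5 and 36.8, 30.1 and 28.6% at P30. The ratio of Bgn to Dcn was 11.1, 15.7 and 7.34 at P5, and 1.25, 1.31 and 1.56 at P30. At P30 this ratio varied less between isolations than the level of either gene, whose highest isolation was 1.76 times its lowest.

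The other genes had smaller shares. Aspn made up 6.15 ± 3.51% at P5 and 8.50 ± 3.02% at P30, Lum 3.19 ± 1.15% and 6.76 ± 2.40%, Ogn 2.16 ± 0.633% and 4.70 ± 1.49%, and Prelp 1.33 ± 0.187% and 3.36 ± 0.980% (SD, n = 3 each). Fmod made up 0.177 ± 0.0833% at P5 and 0.872 ± 0.480% at P30. The summed FPKM of the 9 genes was 1577, 1272 and 1384 at P5 and 2323, 4774 and 2864 at P30. Without Bgn it was 392, 225 and 270 at P5 and 1257, 2894 and 1584 at P30, so the 8 genes other than Bgn held most of the difference between the ages.

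**Figure D2:**
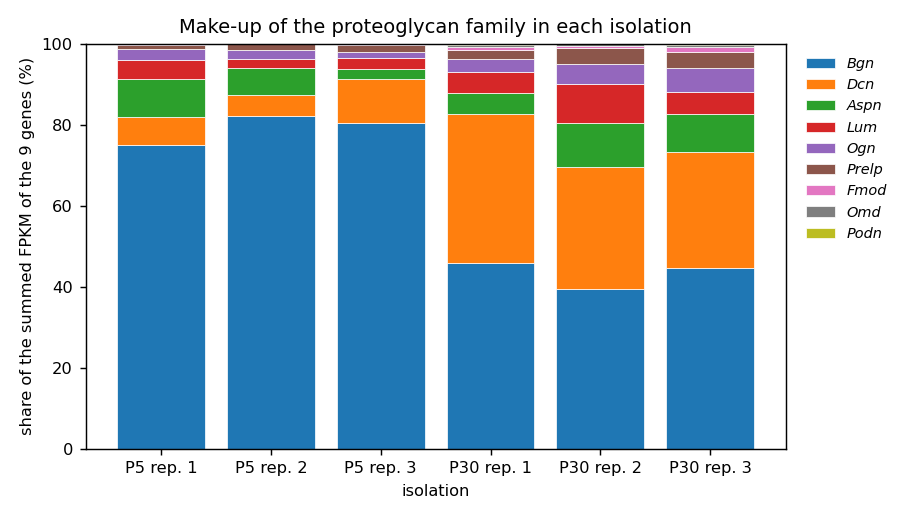
Share of each SLRP gene in the summed FPKM of the 9 genes (%), as stacked bars for each P5 and P30 isolation. Bgn fills 75.1 to 82.3% of the P5 bars and 39.4 to 45.9% of the P30 bars, where Dcn fills 28.6 to 36.8%.

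The P30 isolations differed from each other in most SLRP genes, and along a shared order. In 6 of the 9 genes (Bgn, Lum, Omd, Prelp, Ogn and Aspn), P30 replicate 2 was highest, replicate 3 next and replicate 1 lowest. The share of all genes with this order was not counted, so it cannot be called particular to SLRP genes. Dcn was highest in replicate 2 and lowest in replicate 3, Fmod was highest in replicate 3, and Podn was highest in replicate 1. At P5 no order held for most genes, and the most frequent, replicate 3 above 1 above 2, was that of Dcn, Fmod, Prelp and Podn. The SD of log2(FPKM + 1) had a median over the 9 genes of 0.52 at P5 and 0.75 at P30, beside 0.13 and 0.26 over all genes tested.

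Marker genes of cells other than ECs moved in part with these values. The 7 pericyte markers, led by Rgs5 and Pdgfrb, summed to 1711.74, 894.25 and 467.53 FPKM at P5 and to 1840.83, 6228.02 and 3818.99 at P30, with 1 of 7 called higher at P30. All 7 followed the P30 order of the 6 SLRP genes, replicate 2 above 3 above 1. At P5, 5 of the 7 had the order 1 above 2 above 3, which was that of Ogn and Aspn and not that of the other SLRP genes. The 10 fibroblast markers, led by Col3a1 and Col1a2, summed to 669.23 to 1104.38 FPKM at P5 and to 1054.16, 2754.23 and 1645.34 at P30, with 2 of 10 called higher at P30 (Clec3b and Pi16). The sum had the same P30 order, as did 4 of the 10 (Col1a1, Col1a2, Col3a1 and Pdgfra), while 5 (Clec3b, Dpt, Mfap5, Pi16 and Scara5) were lowest in P30 replicate 2. The 6 smooth muscle markers, led by Acta2 and Tagln, summed to 85.4 to 174.76 at P5 and 311.26 to 1082.55 at P30, with the highest sum in replicate 2 and with 2 of 5 tested called higher at P30. No marker of these 3 lists was at 0 in all isolations. Over all genes tested, 5.89% were called higher at P30. Higd1b, the called pericyte marker, and the called Clec3b and Lmod1 reached the minimum FPKM through P30 alone. The 4 tendon markers, led by Thbs4 and Tnmd, summed to 3.78 to 25.49 at P5 and to 27.28, 38.69 and 73.73 at P30. The sum was highest in P30 replicate 3, as were Thbs4 and Mkx, while Tnmd was highest in replicate 2 and Scx in replicate 1, and 0 of 2 tested were called. The 6 measured cartilage markers, led by Sox9 and Comp, summed to 15.09 to 16.98 at P5 and to 9.31, 35.24 and 20.89 at P30. The sum had the P30 order of the 6 SLRP genes, as did 1 of these markers (Sox9), and Matn1 was at 0 in all isolations. The part of these cells in the SLRP values was not tested.

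Other lists had P30 orders unlike that of the 6 SLRP genes. The summed markers of RPE (led by Ttr and Rgr) and melanocytes (Dct and Pmel) were highest in P30 replicate 1, as was Podn, and lowest in replicate 3. The RPE markers ranged from 68.34 to 148.81 FPKM at P5 and from 502.66 to 3853.81 at P30. Of 7 tested, 5 were called higher at P30, and of these Rpe65 and Lrat reached the minimum FPKM through P30 alone. Melanocyte markers ranged from 98.38 to 463.21 and from 120.97 to 1262.08, with 0 of 6 called. Haematopoietic markers (led by Lyz2 and C1qb) were at 1019.9 to 1363.22 at P5 and 333.06 to 982.81 at P30, with 2 of 7 called higher at P5. Lyz2 did not fall with the sum and overlapped between the ages, with means of 204.1 at P5 and 254.0 at P30. Over all genes tested, 5.82% were called higher at P5 and 5.89% at P30. The 10 EC markers, led by Plvap and Emcn, summed to 21166.17 to 22169.5 at P5 and 30183.5 to 36558.84 at P30. The sum was lowest among the P30 isolations in replicate 2, and 1 of 10 was called higher at P30. Of the 10, 7 were higher in every P30 than in every P5 isolation, beside 22.0% of all genes tested. Cdh5, which encodes VE-Cadherin, was lower in every P30 isolation, with means of 2971 FPKM at P5 and 1885 at P30. Pecam1 and Tek overlapped between the ages.

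**Figure D3:**
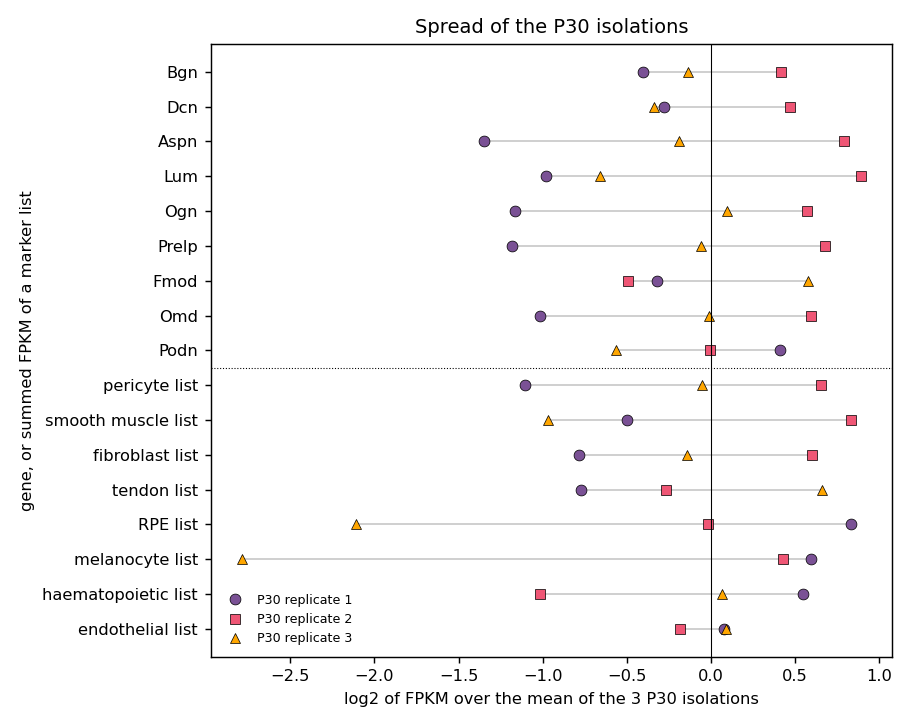
Log2 of each P30 isolation over the mean of the 3 P30 isolations, for the FPKM of each SLRP gene (above the dotted line) and the summed FPKM of cell type marker lists (below it). In 6 SLRP genes, as in the summed pericyte and fibroblast lists (7 of 7 and 4 of 10 of their genes), the order is replicate 2, 3 and 1 from high to low, while the RPE list runs from replicate 1 to 2 to 3.

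SLRP genes lie in clusters that arose from copies of a common ancestor, and 7 of the 9 genes are in 3 of them. On mm9 chromosome 10, Dcn and Lum are separated by 47358 bases and are followed by Kera, which encodes keratocan of the corneal stroma, and by Epyc, a cartilage SLRP, all on the plus strand. Kera was listed at 0 in each P5 isolation and at 2.20, 18.96 and 6.50 FPKM at P30 (limma, adjusted p = 0.0189), so it did not pass the limit of 0.01. Epyc, at 0, 0 and 2.41 FPKM at P5 and 1.28, 3.41 and 13.77 at P30, did not pass it either (limma, adjusted p = 0.138). Kera and Epyc both reached the minimum FPKM for the fit through P30 alone, so nothing is read from these p values. In each P30 isolation, Kera and Epyc were thus far below Dcn and Lum.

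On chromosome 13, Ecm2, Aspn, Omd and Ogn follow each other on the plus strand with gaps of 11654, 15209 and 15462 bases. Ecm2, which encodes a matrix protein with leucine-rich repeats, had 80.2 to 120 FPKM at P5 and 120 to 200.2 at P30, a log2 difference of 0.62 (SE 0.22, limma, adjusted p = 0.0586). This did not pass the limit. All these genes lie inside Cenpp, which encodes a centromere protein, runs on the minus strand (chr13:49559396-49748124) and shares 0 exon bases with any of them. Cenpp was at 32.22, 41.25 and 31.80 FPKM at P5 and 0, 2.68 and 0 at P30, called higher at P5 with a log2 difference of -4.54 (SE 0.54, limma, adjusted p = 0.00102). The host gene was thus lower at P30, while Omd and Ogn in its introns were higher in every P30 isolation.

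On chromosome 1, Prelp on the minus strand lies 2305 bases from Optc, the SLRP opticin of the vitreous, and 115840 bases from Fmod. Optc was listed at 0 at P5 and at 5.41, 1.88 and 2.78 FPKM at P30, below the minimum for testing. Beyond Fmod lies Btg2, a growth-restraining gene (chr1:135971747-135975697), at 156.91 to 188.29 FPKM at P5 and 1453.14 to 2158.87 at P30, with a log2 difference of 3.35 (SE 0.16, limma, adjusted p = 6.15e-05). Chi3l1, a chitinase-like secreted glycoprotein, follows at 0, 0 and 1.04 FPKM at P5 and 42.38, 24.50 and 100.54 at P30 (limma, adjusted p = 0.000646). Of the 31 genes that overlap a member or are among the 3 nearest on a side, 19 were tested. Of these, 2 were called higher at P30 (Btg2 and Chi3l1) and 1 higher at P5 (Cenpp). Over all genes tested, 5.89 and 5.82% were called. Chi3l1 and Cenpp met the minimum FPKM only through the age where they were higher. The median log2 difference of the 19 was -0.02.

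**Figure D4:**
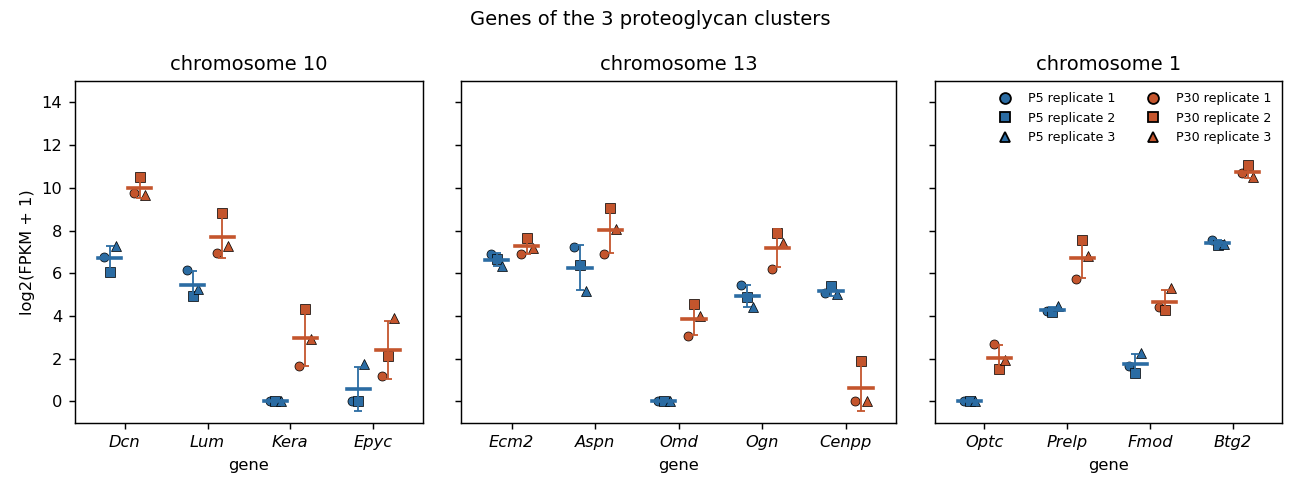
Log2(FPKM + 1) of genes of the SLRP clusters on chromosomes 10, 13 and 1, drawn in map order except Cenpp, which spans the chromosome 13 genes, with a point for each isolation, a bar at the mean and whiskers of 1 SD. Kera, Omd and Optc are at 0 in all P5 isolations, Cenpp is lower at P30 and Btg2 higher.

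Genes that build the chains of SLRPs, the collagens they bind, and their receptors and proteases were read from the same fit. The lists held 82 genes, not all of which were tested, and 5 were called higher at P30 and 2 higher at P5. Over all genes tested, 5.89 and 5.82% were called, so the small counts below only describe the lists. Of the 10 SLRP genes beside the 9 described, 5 were tested and 0 were called, while 3 had a higher and 1 a lower P30 value at an unadjusted limma p under 0.05, as did 2584 and 3592 of all genes. The lower one was Tsku, which encodes tsukushi, a secreted inhibitor of BMP signalling, at 18.4 ± 1.27 FPKM at P5 and 6.49 ± 4.17 at P30 (SD, n = 3 each, limma, adjusted p = 0.0203). Chad, Epyc and Kera, 3 of the 5 tested, reached the minimum FPKM through P30 alone, so no median is given.

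The enzymes of chondroitin and dermatan sulfate chains had a median log2 difference of -0.06, and 1 of 21 tested was called. This was Chpf, a chondroitin-polymerizing factor, at 58.40, 54.40 and 42.96 FPKM at P5 and 137.04, 137.03 and 172.81 at P30, a log2 difference of 1.51 (SE 0.16, limma, adjusted p = 0.000595). At the same limit on p and any fold, 3 were higher at P30 (Chpf, Chst11 and B3gat3) and 2 at P5 (Chst7 and B4galt7), beside 8.51 and 10.7% of all genes. The enzymes of keratan sulfate and tyrosine sulfation had a median of 0.28, with 1 of 7 called. This was B4galt4, a galactosyltransferase of keratan sulfate, at 108.76, 103.13 and 95.66 FPKM at P5 and 334.53, 295.92 and 351.98 at P30, a log2 difference of 1.66 (SE 0.11, limma, adjusted p = 0.000135). At the limit on p and any fold, B4galt4, B3gnt2 and Tpst2 were higher at P30 and B4galt1 at P5, 3 and 1 of the 7. Both Chpf and B4galt4 separated the ages without overlap, and neither had the P30 order of the 6 SLRP genes.

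The fibrillar and fibril-associated collagens, listed together with collagen VI, had a median log2 difference of 0.75, with 1 of 11 tested called. It was Col6a2, a chain of the beaded-filament collagen VI that biglycan and decorin bind, at 67.31, 39.35 and 44.66 FPKM at P5 and 109.89, 386.15 and 212.65 at P30 (log2 difference 2.06, SE 0.43, limma, adjusted p = 0.00901). At P30, 9 of the 13 measured collagens had the order of the 6 SLRP genes. Among bound receptors and growth factors, 1 of 14 tested was called, with a list median of 0.16. It was Tgfb3, a TGF-β ligand, at 14.58, 10.23 and 9.62 FPKM at P5 and 28.16, 34.61 and 35.90 at P30 (log2 difference 1.46, SE 0.22, limma, adjusted p = 0.00251).

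Proteases and their helpers moved in both directions, with 1 of 9 tested called higher at P30, 2 called higher at P5 and a median of 0.01. Pcolce, an enhancer of procollagen C-proteinases, was at 111.13, 80.01 and 129.88 FPKM at P5 and 198.90, 430.24 and 256.35 at P30 (log2 difference 1.41, limma, adjusted p = 0.00936). Bmp1 and Tll1, proteinases of that kind that also trim the propeptide of biglycan, were lower at P30. Bmp1 was at 202.58, 184.57 and 161.77 FPKM at P5 and 55.82, 110.62 and 80.76 at P30, a log2 difference of -1.19 (SE 0.24, limma, adjusted p = 0.00751). Tll1 was at 53.24, 40.83 and 60.65 FPKM at P5 and 17.39, 25.93 and 16.69 at P30, a log2 difference of -1.33 (SE 0.23, limma, adjusted p = 0.00425). The calls of Bmp1 and Tll1 were lost (0 of 2) without any single P5 isolation and without P30 replicate 1 or 3. Those of Col6a2 and Pcolce were lost without any isolation other than P30 replicate 1, and that of Tgfb3 without P5 replicate 2 or 3.

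**Figure D5:**
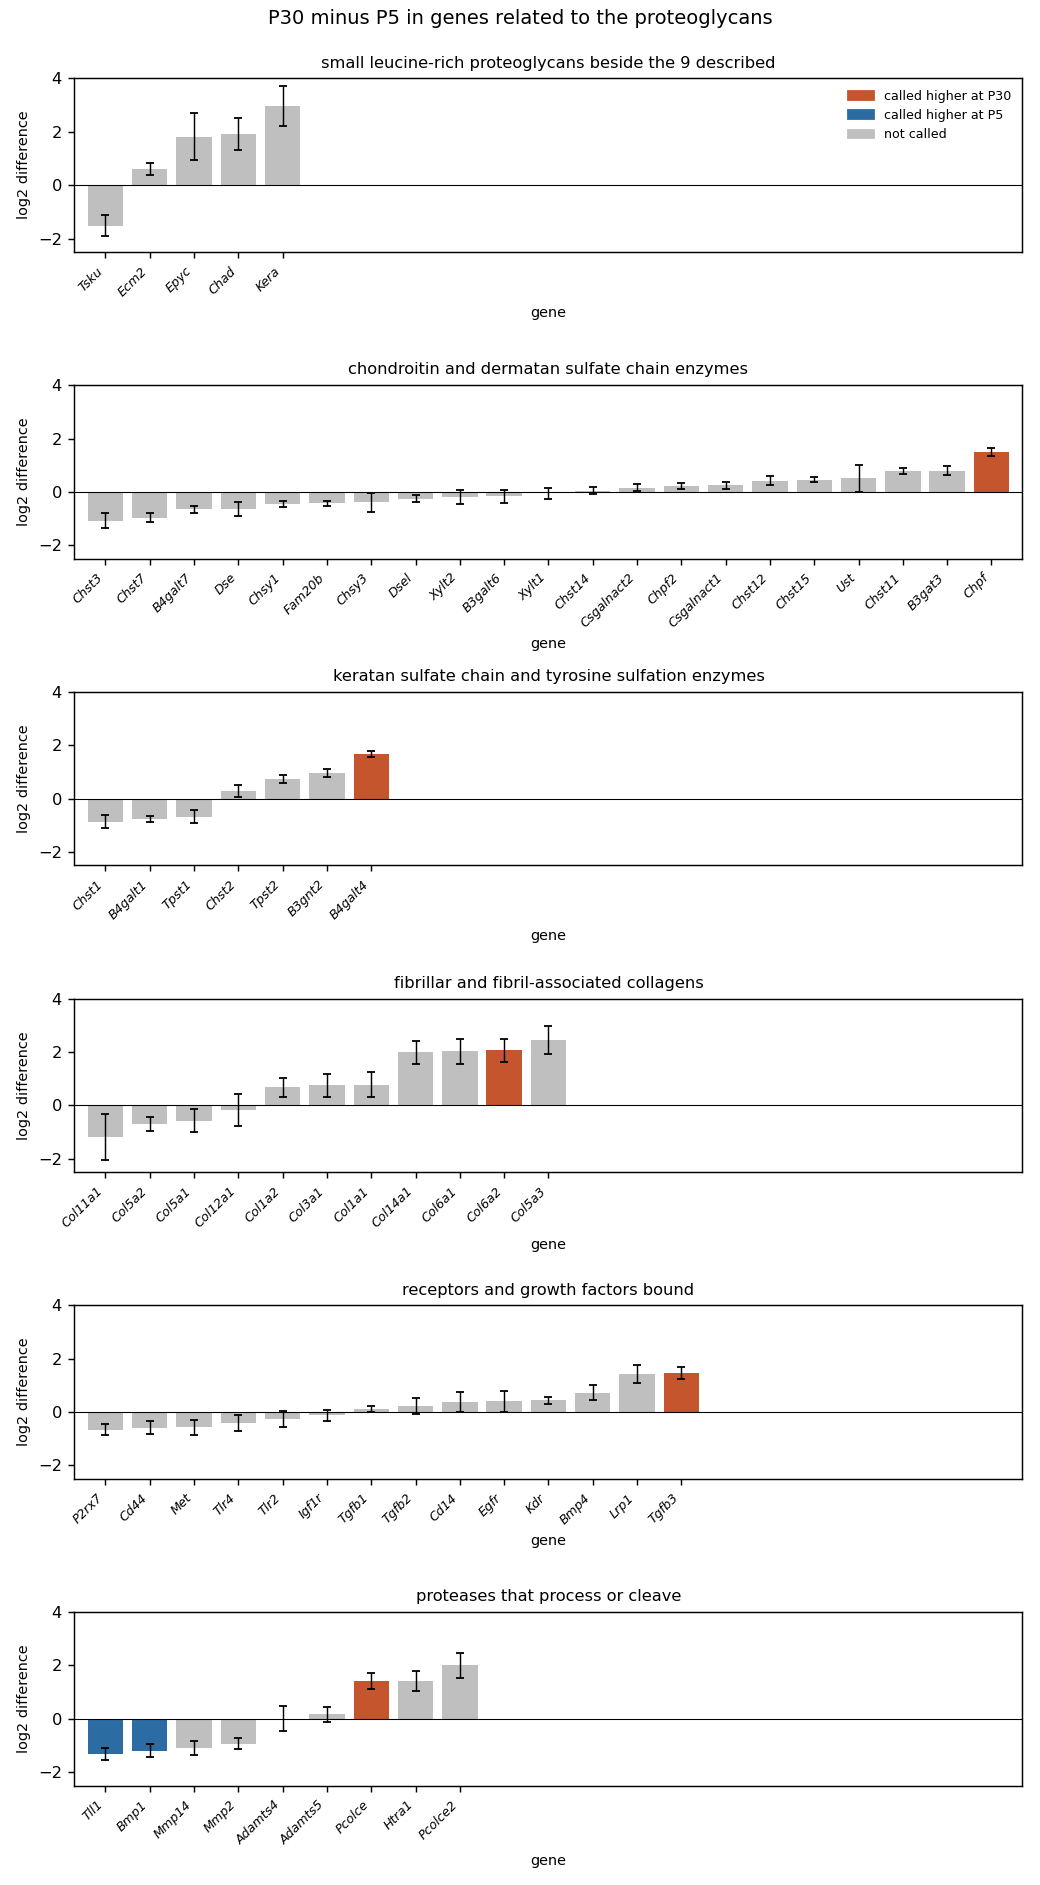
Log2 difference in FPKM + 1 between P30 and P5 for the tested genes of 6 lists related to SLRPs, with bars at the limma estimate, whiskers of 1 SE and colours for calls. The coloured bars are Chpf, B4galt4, Col6a2, Tgfb3 and Pcolce, higher at P30, and Bmp1 and Tll1, higher at P5, and the bar of Kera rests on P5 values of 0.

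Profiles over the 6 isolations were compared with the mean centred profile of the 9 SLRP genes by the root mean square (RMS) difference in log2(FPKM + 1). Among the nearest of the 12481 genes tested outside the family were C1rb (0.14), Hs3st3a1 (0.15), Errfi1 (0.17) and Islr (0.17). C1rb encodes a copy of the complement protease C1r, whose near-identical copies can share reads. Hs3st3a1 encodes a heparan sulfate sulfotransferase, Errfi1 an inhibitor of EGF receptor signalling, and Islr a secreted protein with leucine-rich repeats. Errfi1 was the most abundant of these, at 132.77, 99.71 and 104.95 FPKM at P5 and 441.27, 1146.48 and 645.48 at P30. The SLRP genes themselves lay further from this mean, from 0.27 in Prelp, 0.33 in Ogn and 0.37 in Lum to 0.78 in Omd and 1.04 in Bgn. The outside genes were picked as the nearest of all tested, so nothing is read from this.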

How the data were processed

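RNAseq was carried out on 3 isolations per age. Reads were mapped by the authors to mm9 (TopHat), and they deposited 1 FPKM value per gene symbol and isolation, from Cufflinks with GC and upper quartile normalization (CASAVA 1.8.2 and FastQC are also named in the submitters' processing notes). Other tool versions and the annotation were not given in the sources used here, and the read counts that the authors gave to DESeq2 did not enter here. The upper quartile normalization brings the upper quartiles of the samples together, so a difference is relative to it. Depth is unknown. Low values (0.2 to 2 FPKM) showed no steps of single reads, with at most 5.04% of genes in any bin of 0.05 in the log2 ratio of a pair of samples, so no counting error is given. A value of 0 does not mean absence, and 33.4 to 37.3% of genes were listed at 0 in an isolation.

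From the deposited FPKM, log2(FPKM + 1) was fitted with limma 3.58.1 in R 4.3.3 (lmFit, eBayes with trend, age only) over the 12481 genes with a mean of at least 5 FPKM at an age. The fit was tested on simulated data. A call needed a Benjamini-Hochberg adjusted p below 0.01 together with a 2-fold or larger difference in mean FPKM + 1. The SLRP genes and all lists were chosen with earlier results of these data known. Genes named are the SLRP genes, called genes of the lists, neighbours called or overlapping, the 2 most abundant markers of each cell type, and the 5 most similar profiles, of which some genes, and marker lists that hold them, are not reported here. Kera, Epyc, Optc, Ecm2, Tsku and enzymes past the limit on p alone were named after their values were seen. Col6a3 and Cnmd were not matched. Positions are of GENCODE on mm9, and upstream sequences of RefSeq on GRCm38.p6. Alternatives were other values added before the logarithm (0.1 and 5), a minimum of 1 FPKM or none, no trend, quantile normalization, the fitted coefficient as fold, a replicate block and leaving out each isolation. Python 3.11.15 and pandas 2.3.3 were used.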

Additional observations from a re-analysis of the deposited data

How the results depend on the processing

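The SLRP genes had a higher P30 value, 9 of 9, under each of 14 other settings, a direction by which they were chosen. As a description, the number of SLRP genes past the limits was 5, and 4 to 6 under other settings. It ranged from 3 to 5 when 1 isolation was left out, and was 3 without any single P5 isolation or without P30 replicate 3 (Dcn, Fmod and Omd without each P5 isolation), 4 without P30 replicate 2 and 5 without P30 replicate 1. Over all genes, 735 were called higher at P30 and 726 at P5, and leaving out 1 isolation gave 396 to 849 and 291 to 754.

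Chpf, B4galt4, Btg2, Chi3l1 and Cenpp were called in all 14 settings, Tgfb3 in 11, Tll1 in 8, Bmp1 in 6, Col6a2 in 5 and Pcolce in 4. The other SLRP genes called higher at P30 numbered 1 (Optc) with no filter instead of 0. Collagens called higher at P30, 1 in the fit reported, were 0 with a minimum of 1 FPKM, with no filter, without a trend and with a replicate block, and 3 (Col5a3, Col6a2 and Col14a1) after quantile normalization. Proteases called higher at P30, 1 as reported, were 0 with 0.1 added, with a minimum of 1 FPKM, with no filter and without a trend. Those called higher at P5, 2 as reported, were 1 with no filter and 1 without a trend. After quantile normalization, Mmp14 was called higher at P5 beside Bmp1 and Tll1. The cause of these changes was not tested.

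Leaving out 1 isolation gave ranges, for genes called higher at P30 and at P5, of 2 to 3 and 1 to 1 neighbours, 0 to 1 and 0 to 1 other SLRPs, and 1 to 1 and 0 to 1 chondroitin and dermatan sulfate enzymes. The ranges were 1 to 2 and 0 to 0 for keratan sulfate and tyrosine sulfation enzymes, 0 to 4 and 0 to 2 for collagens, 0 to 2 and 0 to 0 for receptors and growth factors, and 0 to 2 and 0 to 4 for proteases. Bmp1 and Tll1 both lost their calls without any P5 isolation and without P30 replicate 1 or 3. Col6a2 and Pcolce kept theirs without P30 replicate 1 alone, and Tgfb3 lost its call without P5 replicate 2 or 3.

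With the replicate number as a block, 585 genes were called higher at P30 and 524 at P5, 4 SLRP genes stayed past the limits (Ogn did not), 0 receptors and growth factors and 0 collagens were called higher at P30, and 0 proteases were called higher at P5. Col6a2, Tgfb3, Pcolce, Bmp1 and Tll1 were not called in that fit, while Htra1, of the protease list, was called higher at P30. Deviations of samples that share a number correlated at -0.0905 to -0.0305, and 0 samples correlated best with their own number. Whether samples of the same number shared a step of the work is not known from these values. Depth limits all genes near 0, such as Omd and Podn at P5, and cannot be measured from FPKM.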
